A study of Homo sapiens with 8 samples.

Results

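L-histidinol responses that differed in the presence of osimertinib were compared in NCI-H1975, an established human lung adenocarcinoma line that depends on a mutant epidermal growth factor receptor (EGFR). Expression was read from 8 Affymetrix arrays of the U133 Plus 2.0 type, which hold 3′-biased probe sets, with 1 array and 1 RNA sample per condition. Cells of this 1 line received vehicle (DMSO), 10 nM osimertinib, 1 µM alpelisib or the combination of both drugs at these doses, each without and with 2 mM L-histidinol, and all 8 conditions lasted 24 h. Osimertinib is a covalent EGFR inhibitor that largely spares the normal receptor, and alpelisib blocks the alpha isoform of phosphoinositide 3-kinase (PI3K). L-histidinol, an alcohol derived from histidine, blocks the charging of histidine tRNA and so mimics a lack of that amino acid.

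For each gene the L-histidinol response was the log2 intensity with L-histidinol minus the log2 intensity without it. The interaction value was the response in the presence of osimertinib minus the response in its absence, and 2 such values exist per gene. The first compares osimertinib with vehicle, and the second compares the combination with alpelisib. These pairs of pairs share no array. Genes with the same sign in both values were taken as the members, which gave 11634 of 19775 measured genes, or 58.8%. Both values were above 0 for 6403 genes (32.4% of all) and below 0 for 5231 (26.5%). A value above 0 means that the level with L-histidinol, relative to that without, was higher once osimertinib was present. The same number is also the osimertinib effect with L-histidinol minus the osimertinib effect without it, and the arrays cannot tell these readings apart.

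Uncharged tRNA activates the kinase GCN2, which slows translation in general while the transcription factor ATF4 is made, and ATF4 then raises genes of amino acid synthesis, amino acid import and stress. EGFR signals through ERK and PI3K to early response genes, to cyclin D1 and from there to genes of DNA replication and mitosis. In cells with mutant EGFR, loss of this signal is known to stop the cell cycle. The arrays read RNA only, and neither ATF4 activity nor the cell cycle was measured.

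The arrays were alike in brightness, with median intensities from 21.8 to 22.4. Epithelial markers of the line were bright on every array, with CDH1 from 10.75 to 11.53 and KRT7 from 12.77 to 13.28 in log2 intensity, and the lung factor NKX2-1 lay between 7.0 and 9.64. Of 11 measured markers of blood, endothelial and fibroblast cells, 4 had a mean log2 of at least 5, and the collagen COL1A1 was the brightest of them at 9.14. Their median interaction values were -0.11 and 0.02. The ratio of 3′ to 5′ control probe sets of ACTB, which follows RNA integrity, was 1.04 to 1.07 without L-histidinol and 1.10 to 1.15 with it. Its log2 interaction values were 0.05 and -0.0048. The same ratio of GAPDH went the other way, with 0.978 to 1.008 without L-histidinol and 0.966 to 0.982 with it. The GAPDH interaction values were 0.03 and 0.0055.

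With 1 array per condition, the only internal measure of error for the interaction was the disagreement between the first and second value. A limma model with all pairwise terms, its variances moderated toward those of the additive fit, called 0 of 19775 genes (0.0%) after Benjamini-Hochberg adjustment, and the lowest adjusted p was 0.164. At an unadjusted p below 0.05 there were 1653 genes, 948 higher and 705 lower. When limma instead took the prior of the pairwise fit itself, which rests on 1 residual degree of freedom per gene, 576 genes (2.91%) were called higher and 320 (1.62%) lower. On data simulated with the variances of the additive fit, this prior made more false calls than its threshold allows. The real variances may differ from the simulated ones, so the excess in these data is not known. These counts therefore support no statement on single genes or lists. No gene is therefore described here as having risen or fallen, and differences are given as values on the log2 scale with the standard error of the main limma fit.

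Agreement between the first and second value depended on brightness. Across all 19775 genes the Pearson correlation was 0.21. It was 0.06 among 8148 genes with a mean log2 under 5, where 51.7% had the same sign, and 0.52 among 2713 genes with a mean log2 of at least 9, where 67.5% did. These correlations are across genes, which are not independent replicates. Over all genes the median values were 0.02 and 0.01, with standard deviations of 0.26 and 0.25 across genes.

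Both values reached at least 0.5, a 1.41-fold difference, in 77 genes above 0 (0.389% of all) and 80 genes below 0 (0.405%). Of the higher genes 52 had a mean log2 of at least 5, against 31 of the lower ones. Just inside the limit lay CDKN3 (0.50 and 0.503) and LRRC75B (-0.57 and -0.50), and just outside it ADAMTS15 (1.02 and 0.495) and S100A14 (-0.76 and -0.497). Values past 1 in both were found for the dim phosphodiesterase gene PDE4B (1.14 and 1.21, mean log2 of 4.40) and, below 0, for EGR1 and ALDH1L2. The scatter of both values shows where the main gene groups lay.

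**Figure D1:**
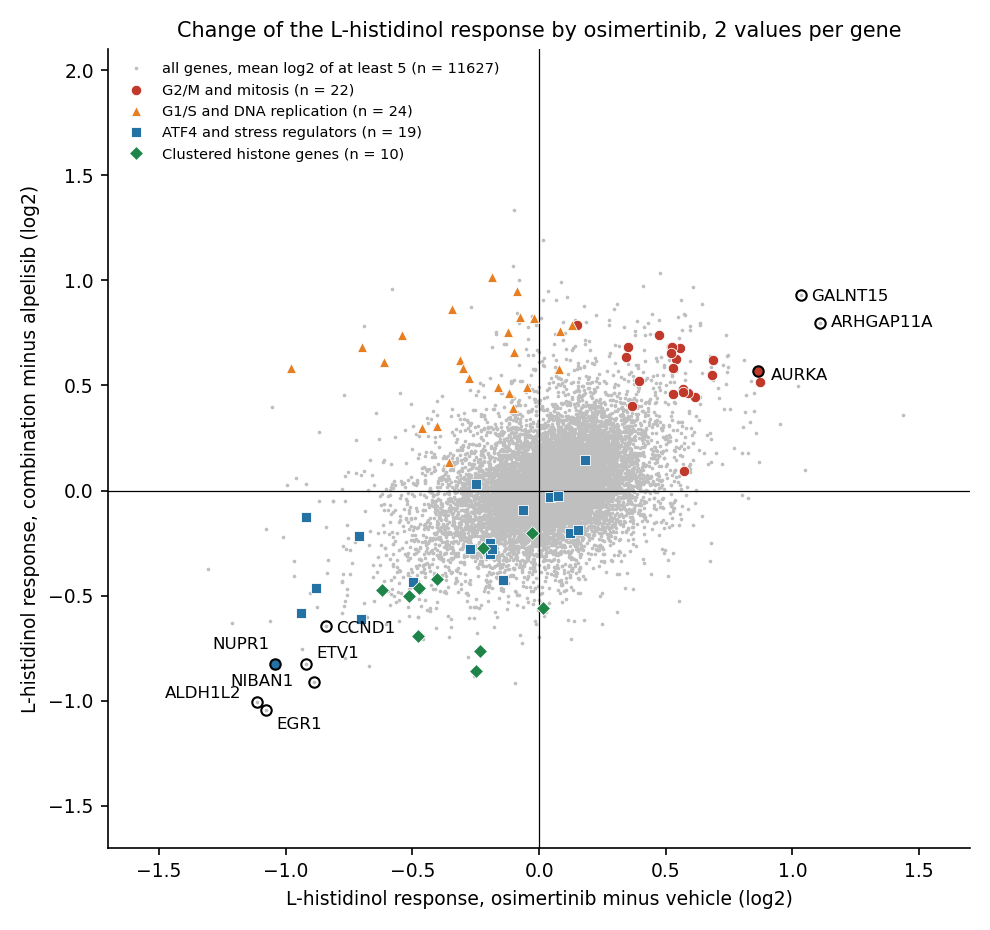
Interaction values of the 11627 genes with a mean log2 of at least 5, with the value without alpelisib on the x axis and the value with alpelisib on the y axis, both in log2 units. Red circles (G2/M and mitosis) lie in the upper right quadrant for all 22 genes, orange triangles (G1/S and DNA replication) lie mostly in the upper left, and blue squares (ATF4 and stress regulators) and green diamonds (clustered histone genes) lie mostly in the lower left.

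Mitotic genes led the members above 0. All 22 measured genes of the G2/M and mitosis list had both values above 0, beside 32.4% of all genes. All 22 had a mean log2 of at least 5, and of all genes that bright, 4628 of 11627 had both values above 0. The 22 genes had medians of 0.53 and 0.58, beside 0.02 and 0.01 over all genes. Their median L-histidinol response was -0.42 in vehicle and -0.26 in alpelisib, and 0.15 in osimertinib and 0.30 in the combination. In 21 of 22 genes the response was below 0 in both pairs without osimertinib, and in 15 it was above 0 in both pairs with it. The limma fit called 0 of the 22 genes (lowest adjusted p = 0.164). In RNA of whole cultures, fewer cells in mitosis and less RNA per cell cannot be told apart.

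These genes were lower with osimertinib than without it, and the gap was smaller on the arrays with L-histidinol. The median difference between osimertinib and vehicle was -0.95 without L-histidinol and -0.43 with it. Between the combination and alpelisib it was -1.32 without L-histidinol and -0.75 with it. Both descriptions rest on the same 8 arrays. The osimertinib effect without L-histidinol enters the interaction with opposite sign, so part of the lean of these genes above 0 is built in. Of all members above 0, 74.5% had an osimertinib effect below 0 without L-histidinol.

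MKI67 encodes the proliferation antigen Ki-67. Without L-histidinol it lay at 9.51 in vehicle, 8.88 in alpelisib, 8.31 in osimertinib and 7.51 in the combination, and with L-histidinol at 8.86, 8.47, 8.35 and 7.72 in the same order. Its level was thus lower with L-histidinol in both pairs without osimertinib and slightly higher in both pairs with it. Its values were 0.69 and 0.62, with a mean of 0.65 ± 0.11 (limma adjusted p = 0.169). The cyclin CCNF, which marks proteins for destruction in G2, lay at 8.15, 7.72, 7.13 and 6.58 without L-histidinol and at 7.52, 7.15, 7.23 and 6.75 with it. Both of its values were 0.74 (mean 0.74 ± 0.13, limma adjusted p = 0.169). With L-histidinol the CCNF level in osimertinib lay between those in vehicle and alpelisib, whereas without it the pairs of arrays with and without osimertinib were apart.

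CDK1, the kinase that drives entry into mitosis, lay at 10.44 in vehicle, 10.04 in alpelisib, 9.28 in osimertinib and 8.25 in the combination, and with L-histidinol at 10.04, 9.73, 9.44 and 8.62. Its values were 0.56 and 0.68 (mean 0.62 ± 0.10, limma adjusted p = 0.169). The mitotic kinase PLK1 lay at 8.49, 7.78, 7.40 and 6.32 without L-histidinol and at 8.02, 7.48, 7.61 and 6.57 with it, which gave 0.68 and 0.55. For both kinases the order of the drug backgrounds was nearly kept, and the distance between them shrank with L-histidinol. The spindle kinase AURKA gave 0.86 and 0.57, and its probe set with a mean log2 of 8.93 gave 0.77 and 0.59. Without probe sets whose names mark possible cross-hybridization, another AURKA probe set with a mean log2 of only 3.84 was used, and the mean was -0.44.

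Members of the list differed in how alike their values were. The kinesin KIF20A had the lowest second value (0.57 and 0.09) and the kinase AURKB the lowest first value (0.15 and 0.79). The motor protein CENPE (0.87 and 0.52), the topoisomerase TOP2A (0.57 and 0.48) and cyclin B1, CCNB1 (0.61 and 0.44), had the larger value without alpelisib. Cyclin A2, CCNA2 (0.47 and 0.74), and the kinesin KIF11 (0.35 and 0.68) had the larger value with it. KIF11 responses were -0.91 in vehicle and -0.69 in alpelisib, and -0.55 in osimertinib and -0.0017 in the combination. KIF11 and KIF20A were the 2 genes of the list whose response was below 0 in both pairs with osimertinib.

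Promoters of mitotic genes often carry a CCAAT box and a cell cycle homology region, CHR, which is bound by repressor complexes in cells that leave the cycle. The 200 bases before the RefSeq transcription start (GRCh38.p14) were searched on both strands for CCAAT and for TTTGAA, the CHR letters used here. CCAAT was found in 16 of 18 list genes with a promoter sequence (88.9%), beside 30.1% of 15384 genes. It was also found in 15 of 21 G1/S genes (71.4%), 11 of 12 clustered histone genes (91.7%) and 6 of 9 amino acid synthesis genes (66.7%). TTTGAA was found in 10 of 18 (55.6%), beside 7.89% of all genes and 1 of 21 G1/S genes (4.76%). TTTGAA was also found in 3 of 12 clustered histone genes, which leaned below 0, and in 2 of 11 immediate early factors. It was found in 1 of 11 ERK output genes, 0 of 18 ATF4 and stress regulators and 0 of 9 amino acid synthesis genes. Among the genes of at least 0.5 in both values and a mean log2 of at least 5, TTTGAA was found in 19 of 42 higher genes (45.2%) and 2 of 20 lower genes (10.0%). A match describes these letters only, and binding was not measured. The promoters of 3 members whose levels are given above are shown with CCAAT or its complement ATTGG and TTTGAA in capitals. They are PLK1 (chr16:23678689-23678888, plus strand), MKI67 (chr10:128126424-128126623, minus strand) and CDK1 (chr10:60778131-60778330, plus strand).
PLK1: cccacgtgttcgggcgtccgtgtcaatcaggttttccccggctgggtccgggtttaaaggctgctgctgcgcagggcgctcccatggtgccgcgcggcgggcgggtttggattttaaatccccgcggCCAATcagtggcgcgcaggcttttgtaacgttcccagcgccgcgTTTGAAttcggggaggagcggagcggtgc
MKI67: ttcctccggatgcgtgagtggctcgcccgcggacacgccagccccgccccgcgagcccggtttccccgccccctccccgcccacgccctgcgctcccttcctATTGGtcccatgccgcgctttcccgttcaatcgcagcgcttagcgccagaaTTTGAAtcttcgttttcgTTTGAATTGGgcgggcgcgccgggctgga
CDK1: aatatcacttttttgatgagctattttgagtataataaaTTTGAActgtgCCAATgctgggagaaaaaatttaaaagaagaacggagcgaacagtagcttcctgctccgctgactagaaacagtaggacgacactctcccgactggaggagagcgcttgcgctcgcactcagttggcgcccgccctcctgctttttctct

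In PLK1 the CCAAT box lay at -73 to -69 and the CHR letters at -29 to -24 before the start. In MKI67 the CHR letters occurred at -47 to -42 and at -29 to -24, and the second match shared a base with an ATTGG at -24 to -20. In CDK1 both lay further upstream, at -161 to -156 for TTTGAA and at -150 to -146 for CCAAT. Both motifs together were found in 9 of 18 list genes and in 2.69% of all genes. They were also found together in 3 of 12 clustered histone genes, 1 of 21 G1/S genes and 1 of 11 immediate early factors. The counts were 0 of 18 for ATF4 and stress regulators, 0 of 9 for amino acid synthesis and 0 of 11 for ERK output.

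Further mitotic genes stood among the 15 highest members ranked by the smaller value, beside the repressor E2F8 and the DNA glycosylase NEIL3. ARHGAP11A was second with 1.11 and 0.80. It lay at 6.15 in vehicle, 5.26 in alpelisib, 4.44 in osimertinib and 4.08 in the combination, and with L-histidinol at 5.59, 5.15, 4.99 and 4.77. The 4 backgrounds spanned 2.07 log2 units without L-histidinol and 0.82 with it. Its levels with osimertinib, from 4.08 to 4.99, were dim. The atypical repressor E2F8 (0.64 and 0.80), the microtubule protein GTSE1 (0.67 and 0.64), the midbody linker GAS2L3 (0.81 and 0.62), the spindle protein CKAP2L (0.61 and 0.97), the centromere protein CENPL (0.60 and 0.76), the histone H3 kinase HASPIN (0.60 and 0.79) and the kinesin KIF14 (0.73 and 0.60) followed. The DNA glycosylase NEIL3 gave 0.64 and 0.79. GTSE1 rests on a probe set marked for possible cross-hybridization, and without such probe sets its mean was -0.14, from a probe set with a mean log2 of 4.46. Its 3 other probe sets, with mean log2 values from 6.69 to 8.03, were above 0 in both values.

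Like E2F8 and NEIL3, the remaining genes among the 15 highest are not known as mitotic genes. GALNT15, a Golgi enzyme that starts mucin-type sugar chains, ranked first with 1.03 and 0.93 (mean 0.98 ± 0.14, limma adjusted p = 0.164). It lay at 5.76 in vehicle, 6.24 in alpelisib, 6.51 in osimertinib and 6.72 in the combination, and with L-histidinol at 5.05, 6.14, 6.84 and 7.55. Unlike the mitotic genes it was higher with osimertinib than without, and that difference was larger with L-histidinol (1.78 and 1.41) than without it (0.75 and 0.48). MYEOV gave 0.74 and 0.64, the long non-coding RNA UBL7-DT 0.64 and 0.89, and UACA 0.74 and 0.64. For UACA the mean was 0.69, and it was 0.10 without the marked probe sets. Of 13 further probe sets of the 15 highest genes with a mean log2 of at least 5, all 13 were above 0 in both values.

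**Figure D2:**
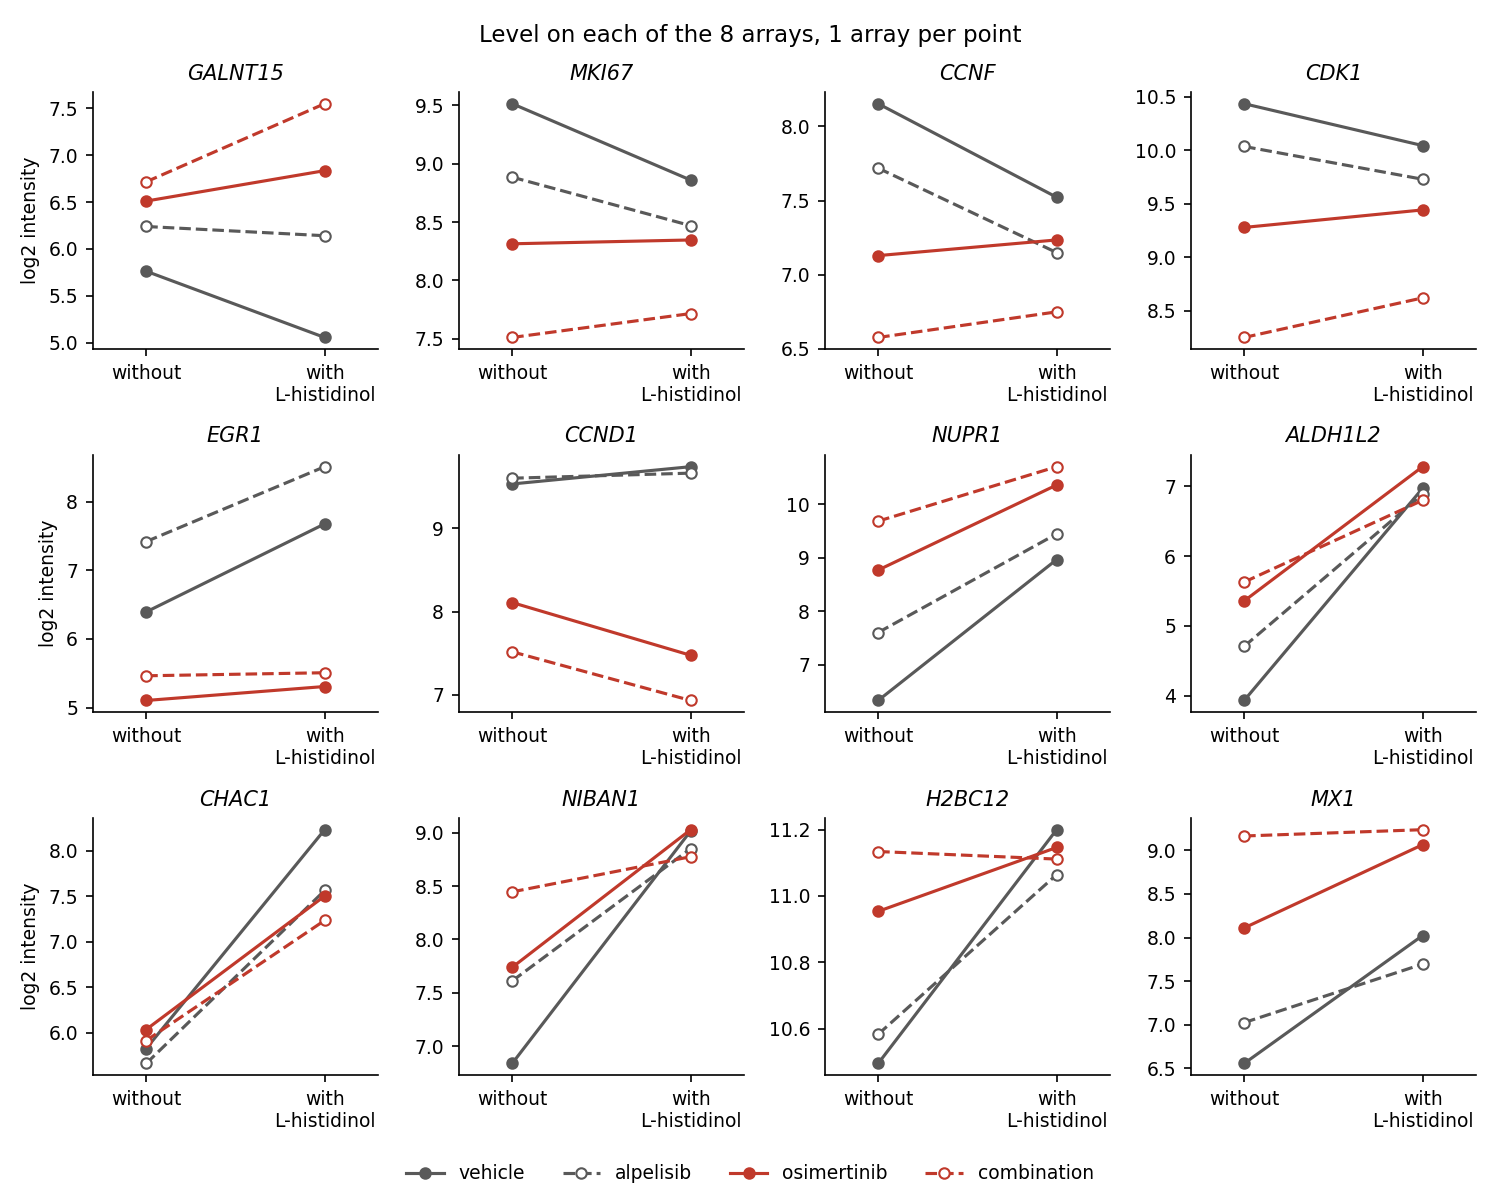
Log2 intensity of 12 named genes on each of the 8 arrays, without and with L-histidinol on the x axis, with lines joining arrays of the same drug background (grey without and red with osimertinib, dashed with alpelisib). Each panel has its own y axis, and the red and grey lines of MKI67, CCNF and CDK1 approach each other with L-histidinol while those of EGR1 and CCND1 move apart.

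Genes of DNA replication behaved unlike the mitotic genes and were mostly no members. Of 24 measured genes of the G1/S and DNA replication list, 3 had both values above 0, none had both below 0, and 21 had opposite signs. Their median value was -0.17 without alpelisib and 0.62 with it. Median responses were -0.40 in vehicle, -0.61 in alpelisib, -0.63 in osimertinib and -0.03 in the combination, so the combination stood apart from the other 3 backgrounds. The 3 members were the helicase subunit MCM7 (0.13 and 0.79), the origin factor ORC1 (0.08 and 0.76) and thymidine kinase, TK1 (0.08 and 0.58). Cyclin E2, CCNE2, had the most opposed values at -0.98 and 0.58, followed by the replication factor MCM10 at -0.70 and 0.69. In the combination without L-histidinol MCM10 lay at 4.61, below its 6.58 in osimertinib, 7.76 in alpelisib and 8.26 in vehicle.

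Nucleolar and ribosome assembly genes had small values above 0. Of 13 measured genes of the MYC and ribosome biogenesis list 11 had both values above 0 and none had both below 0, with medians of 0.18 in both. Their median osimertinib effects without L-histidinol were -0.73 and -0.81, so part of this lean is built in as well. The assembly factor NOP16 gave 0.22 and 0.63, the nucleolar protein NOLC1 0.24 and 0.31, the polymerase I subunit POLR1C 0.21 and 0.46 and the processing factor RRP9 0.25 and 0.26. MYC itself gave 0.10 and 0.26 (mean 0.18 ± 0.09, limma adjusted p = 0.622). Ornithine decarboxylase, ODC1, the first enzyme of polyamine synthesis and a known MYC target, gave 0.34 and 0.29. It lay at 12.09, 11.56, 10.82 and 10.23 without L-histidinol in vehicle, alpelisib, osimertinib and combination, and at 12.22, 11.78, 11.30 and 10.73 with it. ODC1 was thus higher with L-histidinol in all 4 backgrounds, and by more in those with osimertinib.

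**Figure D3:**
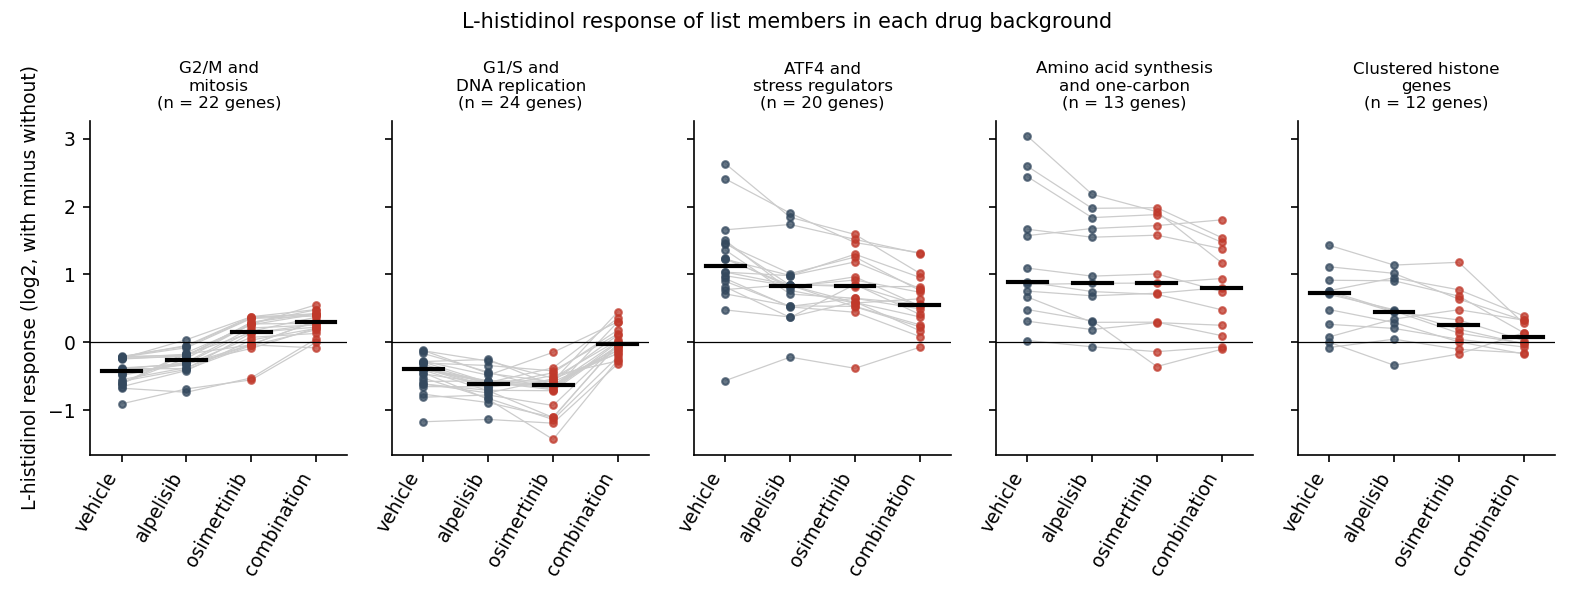
L-histidinol response in log2 units of each gene of 5 lists in vehicle, alpelisib, osimertinib and the combination, with grey lines joining the values of a gene and black bars at the list median. G2/M medians pass from -0.42 and -0.26 to 0.15 and 0.30, the G1/S median is near 0 only in the combination, and the medians of the ATF4 and histone lists decline toward the combination.

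On the other side, part of the amino acid response genes had both values below 0. Of 20 measured ATF4 and stress regulators 13 had both values below 0, beside 26.5% of all genes, and 2 had both above 0. Their medians were -0.19 and -0.23. The median response stayed above 0 in each background, at 1.13 in vehicle, 0.83 in alpelisib, 0.83 in osimertinib and 0.55 in the combination. The limma fit called 0 of them.

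NUPR1, a small stress-induced chromatin protein, lay at 6.34 in vehicle, 7.61 in alpelisib, 8.77 in osimertinib and 9.69 in the combination without L-histidinol, and at 8.97, 9.45, 10.36 and 10.70 with it. Its response was 2.63 in vehicle and 1.02 in the combination, and its level was highest in the combination under either condition. The values were -1.04 and -0.82 (mean -0.93 ± 0.11, limma adjusted p = 0.164). CHAC1, which degrades glutathione, had levels of 5.83, 5.66, 6.04 and 5.92 without L-histidinol and 8.23, 7.57, 7.50 and 7.24 with it. The 4 backgrounds spanned 0.37 without L-histidinol and 0.998 with it, and the values were -0.94 and -0.58 (mean -0.76 ± 0.15, limma adjusted p = 0.177).

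ATF4 itself differed less. It lay at 10.73, 10.80, 10.88 and 11.26 without L-histidinol in vehicle, alpelisib, osimertinib and combination, and at 11.76, 11.65, 11.72 and 11.80 with it. The 4 levels with L-histidinol lay within 0.15 of each other, and the values were -0.20 and -0.30 (mean -0.25 ± 0.08, limma adjusted p = 0.485). DDIT3, the pro-apoptotic factor CHOP, had opposite signs at 0.12 and -0.20. The ubiquitin ligase adaptor KLHL24 gave -0.70 and -0.61, although a further probe set of it gave 0.27 and 0.0031. The cysteine-forming enzyme CTH gave -0.88 and -0.47 and the thioredoxin inhibitor TXNIP -0.50 and -0.44. The pseudokinase TRIB3, another ATF4 target, gave only -0.19 and -0.25, and SESN2, an inhibitor of mTORC1, gave -0.92 and -0.12.

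NIBAN1, which is induced by stress and lies outside the lists, had values of -0.89 and -0.91 (mean -0.90 ± 0.11, limma adjusted p = 0.164). Without L-histidinol it lay at 6.84 in vehicle, 7.61 in alpelisib, 7.74 in osimertinib and 8.45 in the combination, and with L-histidinol at 9.02, 8.85, 9.03 and 8.77. The 4 backgrounds differed by 1.61 without L-histidinol and by 0.25 with it. A like convergence was seen for ALDH1L2, a mitochondrial folate enzyme, at 3.93, 4.71, 5.36 and 5.63 without and 6.97, 6.89, 7.28 and 6.80 with L-histidinol. Its values were -1.12 and -1.01 (mean -1.06 ± 0.15, limma adjusted p = 0.164), and its vehicle level was dim.

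Among 13 measured genes of amino acid synthesis and one-carbon metabolism 9 had both values below 0 and 2 had both above 0, with medians of -0.16 and -0.20. Asparagine synthetase, ASNS, lay at 9.25, 9.47, 9.49 and 9.45 without L-histidinol in vehicle, alpelisib, osimertinib and combination, and at 11.84, 11.44, 11.48 and 10.99 with it. Its values were -0.61 and -0.43 (mean -0.52 ± 0.09, limma adjusted p = 0.169), and the array with L-histidinol and vehicle was the highest of all 8. The mitochondrial enzyme PCK2 gave -0.56 and -0.36. The serine pathway was less affected, with PHGDH at -0.09 and -0.17 and PSAT1 at 0.15 and 0.13, while their responses lay between 1.38 and 1.80 in each background. The branched-chain aminotransferase BCAT1, not in the list, gave -0.77 and -0.79.

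Amino acid transporters and tRNA synthetases showed no common direction. Of 11 transporters 5 had both values below 0 and 1 had both above 0, with medians of -0.03 and -0.15. The neutral amino acid carrier SLC1A4 gave -0.78 and -0.43, a direction that turned (mean 0.19) without the marked probe sets, where a probe set with a mean log2 of 3.43 was read. The 3 other SLC1A4 probe sets, with mean log2 values from 5.93 to 6.61, were below 0 in both values. The large neutral carrier SLC7A5 gave -0.03 and -0.17. Of 18 tRNA synthetases 6 had both values above 0 and 5 both below 0, with medians of 0.01 in both. HARS1, the histidine enzyme on which L-histidinol acts, had opposite signs at -0.07 and 0.14, whereas FARSA, a subunit of the phenylalanine enzyme, gave 0.42 and 0.37.

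ATF4 binds composite elements whose letters were searched as TGATGNAA on both strands. They were found in the 200 bases before the start of 3 of 9 amino acid synthesis genes (33.3%), 1 of 18 ATF4 and stress regulators (5.56%) and 1.86% of all genes. The match in ASNS lay at -68 to -61, and its promoter (chr7:97872409-97872608, minus strand, GRCh38.p14, RefSeq) is shown with it in capitals.
ASNS: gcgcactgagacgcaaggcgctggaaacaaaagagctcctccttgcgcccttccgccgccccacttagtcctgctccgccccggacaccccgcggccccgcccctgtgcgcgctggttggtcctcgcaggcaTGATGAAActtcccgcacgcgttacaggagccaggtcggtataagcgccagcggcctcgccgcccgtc

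An early response gene ranked first below 0 by the smaller of both values, once genes of a mean log2 under 5 were left out. EGR1, an immediate early transcription factor, lay at 6.39 in vehicle, 7.42 in alpelisib, 5.10 in osimertinib and 5.46 in the combination without L-histidinol, and at 7.68, 8.51, 5.31 and 5.51 with it. L-histidinol was thus accompanied by a level 1.28 and 1.09 higher in the pairs without osimertinib and by 0.20 and 0.04 in those with it. The levels with osimertinib, from 5.10 to 5.51, were near the log2 limit of 5 below which genes are called dim here. The values were -1.08 and -1.05 (mean -1.06 ± 0.14, limma adjusted p = 0.164). A dimmer EGR1 probe set gave -0.99 and -1.40, and a further one gave -1.38 and -1.47. EGR1 was nearly alone in its list: of 13 measured immediate early factors 5 had both values below 0 and 1 had both above 0, with medians of -0.12 and -0.07, and FOS gave -0.34 and 0.12.

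Serum response factor binds CArG boxes, which are known elements of the EGR1 promoter. In the 200 bases before its start (chr5:138465279-138465478, plus strand, GRCh38.p14, RefSeq) the CArG box was found at -105 to -96 and at -83 to -74, in capitals here, where each match reads as a CArG box on both strands. It was found in 1 of 11 immediate early factors with a promoter sequence and in 0.969% of all genes.
EGR1: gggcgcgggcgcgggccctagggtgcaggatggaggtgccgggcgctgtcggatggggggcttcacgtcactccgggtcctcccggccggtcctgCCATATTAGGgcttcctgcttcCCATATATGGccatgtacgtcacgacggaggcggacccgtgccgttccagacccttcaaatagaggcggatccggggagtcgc

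Cyclin D1, CCND1, which couples growth signals to G1 progression, lay at 9.53 in vehicle, 9.60 in alpelisib, 8.11 in osimertinib and 7.52 in the combination, and with L-histidinol at 9.74, 9.66, 7.47 and 6.93. Its response was 0.21 and 0.06 without osimertinib and -0.63 and -0.59 with it, so the arrays with osimertinib moved further from the rest. The values were -0.84 and -0.65 (mean -0.74 ± 0.11, limma adjusted p = 0.164), and another CCND1 probe set gave -0.61 and -0.36. The ETS factor ETV1, a target of ERK signaling, gave -0.92 and -0.82 (mean -0.87 ± 0.16, limma adjusted p = 0.172). Its responses were 0.47 and 0.45 without and -0.45 and -0.38 with osimertinib. The ETV1 levels with osimertinib, from 4.31 to 4.95, were dim. Its other probe sets all had a mean log2 under 5. They gave -1.96 and -0.69, -1.07 and -0.59, -0.96 and -0.21, and 0.08 and -0.27. Over the ERK output list 9 of 18 genes had both values below 0 and 5 had both above 0, with medians of -0.15 and -0.06. The ERK phosphatase DUSP6 gave -1.01 and -0.22, and its levels with osimertinib were between 3.98 and 4.62, near the dim end of the scale. Its 2 other probe sets gave -1.57 and -0.02, and -1.63 and 0.10. The receptor EGFR gave -0.02 and -0.0011, with responses from 0.38 to 0.39 in all 4 backgrounds.

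Ligands of the EGF family went in different directions. HBEGF, the heparin-binding ligand, lay at 7.34 in vehicle, 7.53 in alpelisib, 8.08 in osimertinib and 8.50 in the combination without L-histidinol, and at 7.11, 7.34, 6.95 and 7.82 with it. Its response was -0.23 and -0.19 without osimertinib and -1.13 and -0.68 with it, which gave -0.90 and -0.49 (mean -0.70 ± 0.14, limma adjusted p = 0.186). Betacellulin, BTC, gave -0.29 and -0.29, and epiregulin, EREG, was above 0 at 0.39 and 0.34.

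Clustered histone genes, whose mRNAs normally lack a poly(A) tail and are made in S phase, had values below 0. Of 12 measured genes 9 had both values below 0 and none had both above 0, with medians of -0.24 and -0.47. Median responses were 0.72 in vehicle, 0.45 in alpelisib, 0.26 in osimertinib and 0.08 in the combination. Unlike the G1/S genes, histone genes were higher with osimertinib. Without L-histidinol their median difference was 0.99 from vehicle to osimertinib and 0.94 from alpelisib to the combination, against -1.12 and -2.16 for the G1/S list. The osimertinib effect without L-histidinol enters the interaction with opposite sign, so part of the lean of histone genes below 0 is built in. The core histone gene H2BC12 lay at 10.49, 10.58, 10.95 and 11.13 without L-histidinol in vehicle, alpelisib, osimertinib and combination, and at 11.20, 11.06, 11.15 and 11.11 with it. Its arrays differed by 0.64 without L-histidinol and by 0.14 with it, and its values were -0.51 and -0.50 (mean -0.51 ± 0.08, limma adjusted p = 0.169). H2BC6 gave -0.62 and -0.47, and H2BC21 gave -0.48 and -0.69. Histone genes are near-identical copies, so probe sets can read several of them, and how the cRNA was primed was not analysed here.

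The octamer ATTTGCAT, a known element of H2B promoters, was found in 7 of 12 clustered histone genes (58.3%) and in 1.18% of all genes. In H2BC12 (chr6:27146859-27147058, minus strand, GRCh38.p14, RefSeq) it lay at -46 to -39 and alone is in capitals.
H2BC12: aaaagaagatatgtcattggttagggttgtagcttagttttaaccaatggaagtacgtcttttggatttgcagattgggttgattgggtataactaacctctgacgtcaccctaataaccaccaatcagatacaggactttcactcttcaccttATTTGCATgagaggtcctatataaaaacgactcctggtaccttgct

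Genes that were higher with osimertinib, such as those of interferon response and FOXO factors, also leaned below 0. The osimertinib effect without L-histidinol enters the interaction with opposite sign, so part of this lean is built in. Of all members below 0, 81.3% had an osimertinib effect above 0 without L-histidinol. Of 21 interferon response genes 13 had both values below 0 and 6 both above 0, beside 26.5% and 32.4% of all genes. Their medians were -0.15 and -0.13. The antiviral GTPase MX1 lay at 6.55 in vehicle, 7.02 in alpelisib, 8.11 in osimertinib and 9.16 in the combination without L-histidinol, and at 8.02, 7.69, 9.06 and 9.24 with it, giving -0.51 and -0.60. IFI44L gave -0.37 and -0.39 and the regulator IRF7 gave -0.36 and -0.36, while IFIT3 was above 0 at 0.52 and 0.10. Of 19 FOXO targets 13 had both values below 0 and 3 both above 0, with medians of -0.12 and -0.17, and FOXO1 gave -0.33 and -0.38. Of 19 lysosome and autophagy genes 12 had both below 0 and 6 both above 0, led by the autophagosome protein MAP1LC3B at -0.56 and -0.33.

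Sterol and fatty acid synthesis had both values below 0 in 12 of 17 measured genes and both above 0 in 1. The shares of all genes were 26.5% and 32.4%. The medians of the 17 genes were -0.17 and -0.16. In contrast to the ATF4 genes their responses were below 0 in every background, at -0.43 in vehicle, -0.28 in alpelisib, -0.58 in osimertinib and -0.40 in the combination, and the responses with osimertinib were the lower ones of each pair. The sterol monooxygenase MSMO1 gave -0.58 and -0.22, the desaturase SCD -0.48 and -0.30, the reductase DHCR7 -0.42 and -0.29 and the epoxidase SQLE -0.39 and -0.23. The limma fit called 0 of these 17 genes. The lean depended on the probe sets. Without those ending in _x_at or _s_at, 5 of 12 genes had both values below 0 and 2 both above 0, with medians of -0.06 and -0.16. Further SCD probe sets gave -0.57 and 0.21, -0.70 and 0.26, and -0.31 and -0.22. For SQLE, further probe sets with a mean log2 of at least 5 gave -0.47 and 0.11, and -0.68 and -0.38.

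Other named genes were spread over several functions. LY96, the partner of the receptor TLR4, gave -1.21 and -0.63, and the clock factor NPAS2 gave -0.94 and -0.76, although a further NPAS2 probe set was not below 0 in both values. The vitamin D hydroxylase CYP27B1 gave -0.68 and -0.60 and the barrier cystatin CSTA -0.78 and -0.58. GDF15, a secreted stress cytokine, gave -0.77 and -0.52 from a marked probe set, and its mean was 0.11 without such sets, from a probe set with a mean log2 of 2.99. Interleukin-6, IL6, stood above 0 at 0.39 and 0.58. Of 13 further probe sets of the 15 lowest genes with a mean log2 of at least 5, 11 were below 0 in both values.

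**Figure D4:**
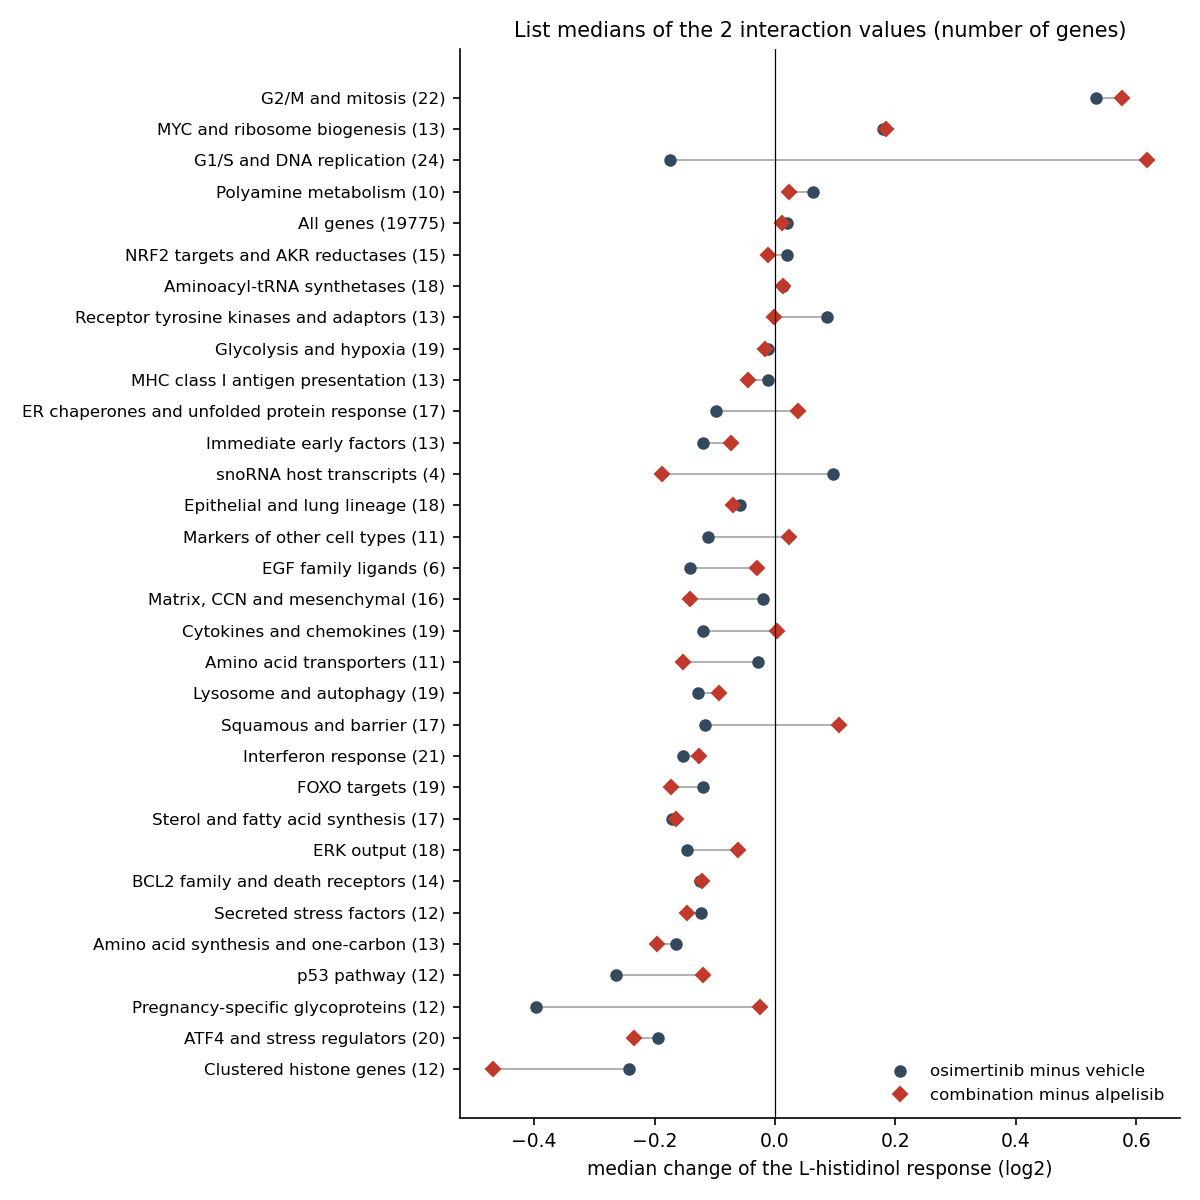
Median of the first interaction value (dark circles, osimertinib minus vehicle) and of the second (red diamonds, combination minus alpelisib) for each of 31 gene lists and for all genes, in log2 units, with the number of measured genes in brackets. The G2/M list is the one with both medians above 0.5, the G1/S list has the widest gap between its medians, and the histone list lies furthest to the left in the second.

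The 157 genes of at least 0.5 in both values were set beside the responses from which they were computed, as a description. Of the 77 higher genes 70 (90.9%) had a mean response below 0 without osimertinib and above 0 with it, a pattern that 17.4% of all genes had. Among all members above 0 the share was 41.5%, and the size rule itself favors such a change of sign. The median response of the 77 genes was -0.38 without and 0.24 with osimertinib. Of the 80 lower genes 50 (62.5%) passed from above to below 0, beside 16.5% of all genes and 44.2% of all members below 0. A further 24 stayed above 0 in both. The median response of the 80 genes was 0.36 without and -0.35 with osimertinib. Of these, 49 had a mean log2 under 5, where the first and second value agreed little across genes.

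The effect of osimertinib on these genes ran against the interaction. Without L-histidinol it was below 0 in 70 of the 77 higher genes (median -1.08) and above 0 in 76 of the 80 lower genes (median 0.49). Over all genes it was below 0 in 47.6% and above 0 in 52.4%. It was below 0 in 74.5% of all members above 0, and above 0 in 81.3% of all members below 0. With L-histidinol the medians of the 77 and 80 genes were -0.41 and -0.15. The osimertinib effect without L-histidinol and the interaction values use the same 4 arrays with opposite sign, so an error in those arrays moves them apart by itself. The 4 exceptions among the lower genes were CCND1, EGR1, ETV1 and XKR7, and GALNT15 was 1 of 7 among the higher genes; for these the osimertinib effect and the interaction had the same sign.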

How the data were processed

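The deposited table gives 1 linear signal intensity per probe set and array, and the submitters' processing notes name RMA and affy as the authors' tools, without versions. RMA as commonly run makes arrays alike in overall brightness, so a shift of most genes together would not be seen. The log2 of each intensity was taken without a pseudocount or a filter. Of 54675 probe sets, 41091 with exactly 1 gene symbol were used (62 were controls, 1801 had several symbols and 11721 none), and each of 19775 genes was read from its probe set of highest mean. The number of arrays limits the precision. With 1 array per condition, p-values and standard errors do not measure a spread between replicates. They rest on the disagreement between the first and second value and mostly on a variance pooled over genes.

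Interactions were estimated over all 8 arrays with limma 3.58.1 (R 4.3.3), in a model with L-histidinol, osimertinib, alpelisib and their pairwise terms, which left 1 residual degree of freedom. Variances were moderated toward the intensity trend of the additive fit of L-histidinol and drug (8.08 prior degrees of freedom), which holds real interactions as well as noise and is cautious. The prior of the pairwise fit itself came to 103 degrees of freedom and was an alternative. Genes were called at a Benjamini-Hochberg adjusted p below 0.05 over all genes. The steps were tested on data simulated with the variances of the additive fit.

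The members, the 31 gene lists (448 of their 499 genes measured) and the tests were chosen with earlier results of these data known. Genes were named by rule. Ranking members of mean log2 5 or more by the smaller of both values, it took the 15 highest and the 15 lowest. It added up to 4 genes of each list with the smaller value at least 0.2, and 9 genes whatever their values (ATF4, ASNS, DDIT3, CHAC1, HARS1, DUSP6, CCND1, MYC and EGFR). Other genes named to illustrate a list or a limit were chosen after their values were seen. Promoter sequences are RefSeq's for GRCh38.p14. Python 3.11.15, numpy 2.4.6, pandas 2.3.3 and matplotlib 3.10.9 were used.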

Additional observations from a re-analysis of the deposited data

Results flagged for a closer look

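For a part of the genes named by the rule the L-histidinol response had one sign in both pairs without osimertinib and the opposite sign in both pairs with it. The test of that difference is the interaction in limma, which called 0 genes after adjustment. Below 0 without and above 0 with osimertinib were GALNT15 with a mean interaction of 0.98, ARHGAP11A with 0.96, CKAP2L with 0.79, UBL7-DT with 0.76, CCNF with 0.74, NEIL3 with 0.71, GAS2L3 with 0.71, UACA and HASPIN with 0.69 each, CENPL with 0.68, KIF14 with 0.66 and MKI67 with 0.65, all among the 15 highest members. Among genes named for their list, AURKA with 0.72, CDK1 and PLK1 with 0.62 each, NOP16 with 0.42, POLR1C with 0.34, TAP2 with 0.32, RRP9 with 0.25 and SLC2A1 with 0.22 had this pattern. The KIF14 response in alpelisib was within 0.005 of 0. The G2/M and mitosis list showed the same pattern in its medians, with a median mean interaction of 0.54. Above 0 without and below 0 with osimertinib were ETV1 with -0.87, ENTREP1 with -0.75, CCND1 with -0.74 and CYP27B1 with -0.64. Genes named for their list with this pattern were SESN3 with -0.43, ITGA2 with -0.41, TP53INP1 with -0.33 and IER2 with -0.26. A further SESN3 probe set, with a mean log2 of 5.43, had opposite signs at 0.57 and -0.35. The ETV1 levels with osimertinib were dim, from 4.31 to 4.95. Besides KIF14, several sign changes rest on a response close to 0 in 1 pair of arrays. Examples are MKI67 and NOP16 (0.03 each), NEIL3 and SLC2A1 (0.04 each) in osimertinib, and POLR1C (-0.04) and TP53INP1 (0.05) in alpelisib. By mean responses, 17.4% of all genes passed from below to above 0 and 16.5% from above to below 0.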

How the results depend on the processing

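Calls depended on how the variance was set. The prior and the term for L-histidinol by alpelisib leave a gene's mean interaction unchanged, so its direction could not turn there. Genes named by rank had the same sign in both values by rule, so either value alone keeps their direction. Under the probe set and scaling settings directions could turn, and did for genes given below. The limma fit called 0 genes; the prior of the pairwise fit called 576 higher and 320 lower, and a fit with no term for L-histidinol by alpelisib called 1 higher and 2 lower. Leaving out 1 array at a time in that last model gave 0 to 75 genes higher and 0 to 15 lower, with 75 and 14 without the osimertinib array, 75 and 15 without its L-histidinol partner, 7 and 9 without the alpelisib array and 7 and 8 without its partner. Genes with the same sign numbered 7418 when a mean log2 of at least 5 was required, since fewer genes were tested. At least 0.5 in both values was reached by 34 higher genes with log2(intensity + 16), and by 49, 31 and 21 lower genes with the mean of probe sets, the limit of 5 and the added 16. Of the same-sign genes 55.0% were above 0, against 61.2% with array medians subtracted and 49.6% with quantile normalization.

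Without probe sets ending in _x_at or _s_at the mean interaction turned to -0.14 for GTSE1, 0.19 for SLC1A4, -0.44 for AURKA, -0.20 for MGP, -0.043 for SLC2A1, 0.11 for GDF15 and 0.0033 for EGFR, and 16 of 18 G2/M genes had both values above 0. EGFR was 0.075 with the mean of probe sets and 0.013 with array medians subtracted, HARS1 was -0.030 with quantile normalization, and with the 4 arrays without alpelisib alone DDIT3 was 0.12 and HARS1 -0.073. The cause was not tested. No paired analysis was possible because each condition had 1 array and the labels carry no replicate numbers.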
